A study of Mus musculus with 2 samples.

Results

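The genes of the SLC25 family encode the mitochondrial solute carriers. They were taken as all rows of the expression table whose symbol starts with Slc25a and a number, leaving out Slc25a20, the carnitine and acylcarnitine carrier that works with the carnitine shuttle. This gave 44 of the 30868 listed features, of which 43 are carrier genes and 1, Slc25a5-ps, is named as a pseudogene. RNA came from MIN6, an established mouse insulinoma line used as a model of the pancreatic beta cell, and each group is 1 library. The library labelled HGP has the treatment label high glucose and palmitate, and the library labelled NGP has a treatment label that reads as normal. The treatment text, with glucose at 33.3 mmol/l, palmitate at 0.4 mmol/l and albumin at 0.5%, is the same for the 2 samples, which leaves the glucose and palmitate of the NGP culture unknown. Neither label gives a treatment time. The title of the series concerns lactate dehydrogenase A and the loss of beta cell identity in diabetes. As a tumour line, MIN6 differs from the primary beta cell.

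SLC25 carriers are made from nuclear genes and built from repeats of a common transmembrane module. Most sit in the inner mitochondrial membrane, where they exchange nucleotides, phosphate, organic acids, amino acids and cofactors between the cytosol and the matrix. In beta cells they carry the traffic that ties glucose oxidation to insulin release. ADP/ATP exchange supplies the ATP that closes potassium channels, the aspartate/glutamate carrier moves reducing equivalents inward, and citrate and other organic acids leave the matrix as precursors and signals.

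The promoters of Slc25a38 and Slc25a29 are shown because these genes had the lowest ratios of HGP to NGP among the carriers of mean level 1 RPKM or more. Each runs from 250 bases before to 50 bases after the gene's start and is taken from RefSeq on GRCm38.p6, an older build than that of the expression table. Slc25a38 lies at chr9:120110132-120110431 on the plus strand and Slc25a29 at chr12:108835827-108836126 on the minus strand. Capitals mark matches, on either strand, to the ETS core CCGGAAG, the E-box CACGTG and the CCAAT box, none of which overlap each other here, and ATTGG is CCAAT read on the other strand.
Slc25a38: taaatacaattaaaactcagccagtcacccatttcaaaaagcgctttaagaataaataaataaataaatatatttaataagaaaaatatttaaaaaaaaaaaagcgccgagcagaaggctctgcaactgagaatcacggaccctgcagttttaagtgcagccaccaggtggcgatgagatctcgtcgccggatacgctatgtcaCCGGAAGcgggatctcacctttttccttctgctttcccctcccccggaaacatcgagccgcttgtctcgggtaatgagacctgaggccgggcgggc
Slc25a29: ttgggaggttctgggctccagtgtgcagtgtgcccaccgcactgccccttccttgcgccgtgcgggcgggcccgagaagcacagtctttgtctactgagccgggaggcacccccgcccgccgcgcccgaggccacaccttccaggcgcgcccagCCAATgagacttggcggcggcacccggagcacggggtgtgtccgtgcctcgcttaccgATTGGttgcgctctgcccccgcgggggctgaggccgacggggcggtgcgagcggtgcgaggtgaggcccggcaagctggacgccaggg
Both genes had lower levels in the HGP library. None of the motifs looked for was found in both promoters, and whether any motif bears on these levels was not tested. The Slc25a38 sequence is 45.3% G and C, the lowest among the 27 promoters found for 20 of the 27 carriers above the level filter, and that of Slc25a29 is 72.3%. The ETS core was found in 18.5% of those 27 promoters and in 8.86% of all 32851, the E-box in 14.8% and 7.15%, and the CCAAT box in 51.9% and 37.4%. A match describes the letters only.

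The libraries held 43727919 reads (HGP) and 44149406 reads (NGP), recovered from the RPKM values, which scale reads to feature length and library size. Ratios below are HGP over NGP on plain RPKM. The interval in brackets after a ratio is an exact 95% interval for the counting error of the reads. It compares these libraries and not the conditions, because 1 library per group leaves no replicate check. Even read numbers made up 74.8% (HGP) and 74.1% (NGP) of features with fewer than 40 reads, and whether both mates of read pairs were counted is not given. Intervals were therefore also computed on halved reads. In bulk RNA, fewer cells with a transcript and less transcript per cell cannot be told apart. Markers of the beta cell were present, with Iapp, the gene of islet amyloid polypeptide, at 4692 (HGP) and 4664 (NGP) RPKM. The summed level of 12 such markers was 5986 RPKM in the HGP and 6545 RPKM in the NGP library, and 10 of them had a log2 ratio below 0. Of these, 6 were at least 1.2-fold lower, among them the insulin genes Ins1 at 34.8 (HGP) and 66.0 (NGP) RPKM and Ins2 at 725 (HGP) and 1197 (NGP) RPKM. The insulin activator gene Mafa stood at 12.2 (HGP) and 17.1 (NGP) RPKM and G6pc2, an islet glucose-6-phosphatase, at 77.1 (HGP) and 106 (NGP) RPKM. Of markers of other cells, the alpha cell hormone gene Gcg stood at 4.68 (HGP) and 7.31 (NGP) RPKM, and Ttr, which alpha cells also express, at 65.0 (HGP) and 57.0 (NGP) RPKM. The delta cell hormone gene Sst stood at 9.67 (HGP) and 7.45 (NGP) RPKM. Only 1 of 4 acinar markers looked for, Cela1, was among the features, below 1 RPKM with 13 (HGP) and 12 (NGP) reads. Fibroblast markers were found for 2 of 3, both below 1 RPKM. Col1a1 had 78 (HGP) and 86 (NGP) reads and Vim had 12 (HGP) and 8 (NGP) reads. Of macrophage markers Cd68 stood at 2.02 (HGP) and 0.901 (NGP) RPKM, Ptprc at 63 (HGP) and 57 (NGP) reads and Adgre1 at 0 (HGP) and 2 (NGP) reads. The part of these markers in the carriers' differences was not tested.

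The carrier family as a whole stood at nearly the same level in both libraries. The 44 rows summed to 289.5 RPKM in the HGP library and 293.6 RPKM in the NGP library, a ratio of 0.986, and they took 0.106% and 0.107% of all reads. Of the 44 rows, 27 reached a mean of 1 RPKM and 17 did not. On the scale of log2 of RPKM plus 0.5, 12 of the 27 lay above 0 and 15 below, with 50.7% and 49.3% of all 13947 features of that level above and below. The median was -0.03 for the carriers and 0.0028 for all features. Carriers ranged from -0.50 to 0.13, whereas the 5th and 95th percentiles of all features were -0.36 and 0.35. None of the 27 was at least 1.2-fold higher in the HGP library, a difference that 8.68% of all features reached. Slc25a38 and Slc25a29, 2 of the 27 or 7.41%, were at least 1.2-fold lower, against 8.84% of all features. Among features of at least 300 bases, which all 27 carriers are, the shares were 7.47% higher and 7.75% lower. No carrier was past 1.5-fold on this scale in either direction, where 1.74% of all features were higher and 1.48% lower. The carriers past 1.2-fold lower thus came at about the rate of all features.

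**Figure D1:**
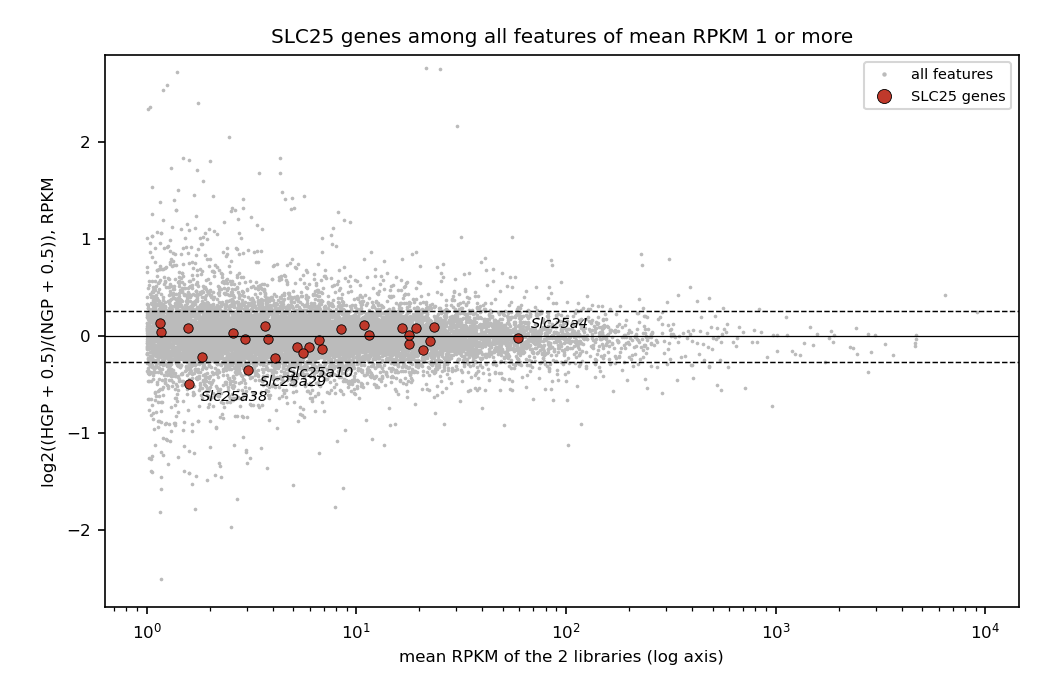
Each point is a feature of mean RPKM 1 or more, placed by its mean RPKM over the 2 libraries (log axis) and by log2 of the HGP over the NGP level, with 0.5 RPKM added to each. Red points are the 27 carriers and dashed lines mark 1.2-fold, and Slc25a38 at -0.50 and Slc25a29 at -0.35 are the carriers below the lower line.

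Carrier levels spread widely. In both libraries 10 carriers stood at 10 RPKM or more, and they held 76.0% of the family's RPKM in the HGP library and 75.1% in the NGP library. Slc25a4 was first in both. Next came Slc25a1, Slc25a5, Slc25a39 and Slc25a3 in the HGP library and Slc25a5, Slc25a1, Slc25a3 and Slc25a39 in the NGP library. In the HGP library the counting intervals of Slc25a39 (19.1 to 20.7 RPKM) and Slc25a3 (19.1 to 20.2 RPKM) overlapped, and in the NGP library those of Slc25a5 (21.9 to 24.1 RPKM), Slc25a1 (21.8 to 23.8 RPKM) and Slc25a3 (21.2 to 22.4 RPKM) all overlapped. The order also depends on the length a gene is given. The deposited lengths were from 1.00 to 3.44 times the length of the principal transcript in GENCODE M21, with a median of 1.53 over the 27 carriers. RPKM was recomputed with all reads of a gene on the length of that transcript. Slc25a3 then stood at 67.7 (HGP) and 75.0 (NGP) and Slc25a4 at 72.0 (HGP) and 73.2 (NGP). Reads were not limited to that transcript, so reads from other exons of the gene can raise these values. On that length Slc25a3 moved from rank 5 to rank 2 in the HGP library and from rank 4 to rank 1 in the NGP library. A ratio between the libraries is the same on either length.

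**Figure D2:**
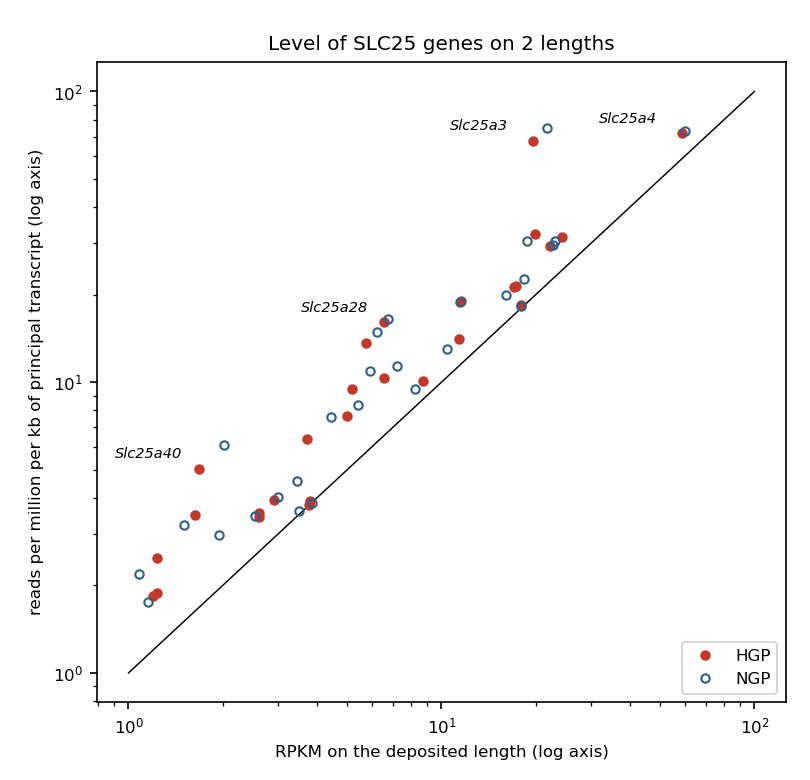
Levels of the 27 carriers from the same reads, on the deposited length (RPKM, horizontal log axis) and on the length of the principal GENCODE transcript (vertical log axis). Filled points are HGP and open points NGP. The line marks equal values, and Slc25a3, whose deposited length is 3.44 times its transcript, lies farthest above it.

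Genes for ADP/ATP exchange differed little between the libraries. Slc25a4 encodes the adenine nucleotide translocator of heart and muscle, and it is on chromosome 8 at 46659834 to 46664321 (GRCm39, minus strand). It stood at 58.9 RPKM in the HGP library and 59.9 RPKM in the NGP library, a ratio of 0.984 (0.949 to 1.019). Slc25a5, the gene of the widely expressed translocator, is on chromosome X at 36059304 to 36062460 (plus strand). Its level was 22.2 RPKM in the HGP and 23.0 RPKM in the NGP library, a ratio of 0.965 (0.900 to 1.03). Slc25a4 was thus the more abundant of the pair in these cells, at 2.65 times (HGP) and 2.60 times (NGP) the RPKM of Slc25a5. Slc25a5 has near-identical processed pseudogenes, and how reads shared with them were counted is not given. Together the pair held 28.0% of the family's RPKM in the HGP library and 28.2% in the NGP library.

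Carriers that exchange ATP-Mg for phosphate set the adenine nucleotide pool of the matrix. Those above the filter, Slc25a23, Slc25a25 and Slc25a24, are regulated by calcium, and their ratios all lay slightly below 1. Slc25a23 had 6.54 (HGP) and 7.23 (NGP) RPKM and a ratio of 0.906 (0.844 to 0.971). Slc25a25 stood at 5.72 (HGP) and 6.21 (NGP) RPKM, a ratio of 0.922 (0.867 to 0.980). Their intervals lay below 1 on whole reads and reached 1.00 and 1.01 on halved reads. Slc25a24 was nearer to 1, with 3.77 RPKM in the HGP and 3.85 RPKM in the NGP library (0.872 to 1.10 for the ratio). Slc25a41 had no reads in either library, which allows up to 0.0515 (HGP) and 0.0511 (NGP) RPKM at 3 reads. The phosphate carrier gene Slc25a3, which brings in phosphate for ATP synthesis and also copper, lies on chromosome 10 at 90952436 to 90959921 (minus strand). It had 19.7 RPKM in the HGP library and 21.8 RPKM in the NGP library, a ratio of 0.902 (0.867 to 0.938), and its interval on halved reads also lay below 1. Exons of Slc25a23, Slc25a25 and Slc25a3 overlap opposite-strand genes, and the sources do not say if reads were assigned by strand.

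Carriers of organic acids went both ways. Slc25a1 encodes the citrate carrier, which exports citrate for lipid synthesis, and lies on chromosome 16 at 17743087 to 17746083 (minus strand). It had 24.3 RPKM in the HGP library and 22.8 RPKM in the NGP library, a ratio of 1.07 (1.01 to 1.13). Slc25a11, the gene of the carrier that exchanges oxoglutarate for malate, stood at 17.3 (HGP) and 18.3 (NGP) RPKM, a ratio of 0.946 (0.883 to 1.01). The dicarboxylate carrier gene Slc25a10 was lower, with 3.72 RPKM in the HGP and 4.44 RPKM in the NGP library. Its ratio of 0.838 (0.748 to 0.939) did not reach 1.2-fold. Exons of Slc25a10 overlap those of Gm11788 on the opposite strand, which had 267 reads in the HGP and 370 reads in the NGP library, beside 562 (HGP) and 677 (NGP) reads for Slc25a10. Exons of Slc25a11 overlap Rnf167 in the same way.

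For aspartate and glutamate, 1 carrier of each kind was expressed and the other was near 0. Slc25a12 encodes aralar, the calcium-regulated aspartate/glutamate carrier of the malate-aspartate shuttle, and lies on chromosome 2 at 71101407 to 71198093 (minus strand). It had 8.71 (HGP) and 8.23 (NGP) RPKM, a ratio of 1.06 (1.00 to 1.12). Slc25a13, the gene of its relative citrin, had 2 reads in each library. The glutamate carrier gene Slc25a22 stood at 1.63 RPKM in the HGP and 1.51 RPKM in the NGP library, a ratio of 1.08 (0.943 to 1.24). Its relative Slc25a18 had 11 reads in each library. RPKM of Slc25a22 was 12.4 times (HGP) and 11.6 times (NGP) that of Slc25a18, whose exons overlap Atp6v1e1 on the opposite strand. With the same reads on the lengths of the principal transcripts it was 26.5 times (HGP) and 24.7 times (NGP).

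Carriers of other amino acids held both genes past 1.2-fold with 0.5 RPKM added. Slc25a38 encodes a glycine carrier needed for the first step of haem synthesis, and lies on chromosome 9 at 119939440 to 119953570 (GRCm39, plus strand). It had 1.23 RPKM from 148 reads in the HGP library and 1.95 RPKM from 236 reads in the NGP library, a ratio of 0.633 (0.512 to 0.781). On halved reads the interval ran from 0.467 to 0.854. Slc25a29, a carrier of basic amino acids on chromosome 12 at 108791799 to 108801809 (minus strand), stood at 2.62 RPKM from 298 reads in the HGP library. In the NGP library it had 3.46 RPKM from 398 reads, a ratio of 0.756 (0.648 to 0.881), with 0.607 to 0.940 on halved reads. Neither gene shares exons with another listed feature. The branched-chain amino acid carrier gene Slc25a44 was close to 1, with 18.0 RPKM in the HGP and 17.9 RPKM in the NGP library. The ornithine carrier gene Slc25a15 had 0.800 (HGP) and 0.837 (NGP) RPKM, below the filter, and a ratio of 0.956 (0.783 to 1.17). Slc25a2, also an ornithine carrier gene, had no reads in the HGP library and 8 reads in the NGP library.

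**Figure D3:**
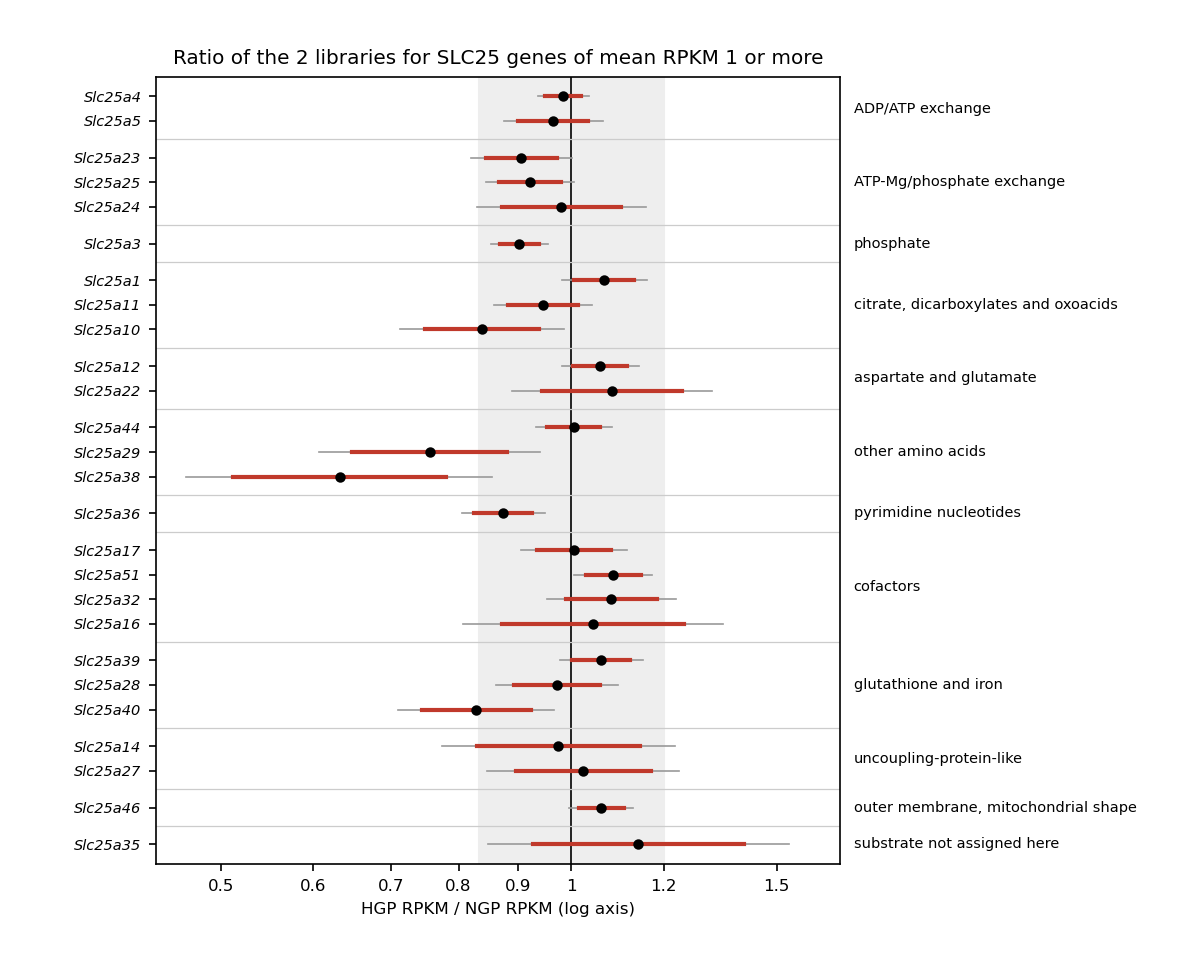
Ratio of HGP to NGP RPKM (log axis) for 26 of the 27 carriers of mean RPKM 1 or more, grouped by substrate, with 95% counting intervals on whole reads (thick red) and on halved reads (thin grey). The grey band spans 1.2-fold either way, and the points of Slc25a38 at 0.633 and Slc25a29 at 0.756 are the farthest from 1.

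Among carriers of pyrimidine nucleotides, Slc25a36 was expressed and Slc25a33 was near 0. Slc25a36 had 5.18 RPKM in the HGP and 5.93 RPKM in the NGP library, a ratio of 0.874 (0.825 to 0.926), and its interval on halved reads, 0.805 to 0.948, also lay below 1. A near-identical pseudogene, Gm13217, had 108 (HGP) and 126 (NGP) reads. Slc25a33 had 4 reads in the HGP library and 2 reads in the NGP library.

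Carriers of cofactors were mostly at or above 1. Slc25a51, which brings NAD into the matrix, had 11.4 RPKM in the HGP and 10.4 RPKM in the NGP library, a ratio of 1.09 (1.03 to 1.15). It was the only one of the 27 carriers whose interval on halved reads lay above 1, at 1.01 to 1.17, and its exons overlap Gm56273 on the same strand. Slc25a17, whose product is a peroxisomal carrier of cofactors such as coenzyme A, stood at 11.5 RPKM in both libraries. The folate and FAD carrier gene Slc25a32 had 3.80 (HGP) and 3.51 (NGP) RPKM, a ratio of 1.08 (0.989 to 1.18). Slc25a16, linked to coenzyme A in mitochondria, had 1.201 (HGP) and 1.15 (NGP) RPKM. Below the filter, Slc25a26 encodes the carrier of S-adenosylmethionine, the methyl donor of the cell. It had 0.880 RPKM from 185 reads in the HGP and 0.636 RPKM from 135 reads in the NGP library, a ratio of 1.38 (1.10 to 1.74), with 1.00 to 1.92 on halved reads. Its exons overlap Lrig1 on the opposite strand. The coenzyme A carrier gene Slc25a42 stood at 0.561 (HGP) and 0.453 (NGP) RPKM, a ratio of 1.24 (0.965 to 1.59).

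Genes of glutathione and iron transport came in unequal pairs. Slc25a39, which brings glutathione into mitochondria, had 19.8 RPKM in the HGP and 18.7 RPKM in the NGP library, a ratio of 1.06 (1.00 to 1.12). Its relative Slc25a40 was lower, with 1.67 (HGP) and 2.02 (NGP) RPKM and a ratio of 0.829 (0.744 to 0.923), or 0.710 to 0.966 on halved reads. With 0.5 RPKM added it did not reach 1.2-fold. Slc25a39 therefore stood at 11.8 times (HGP) and 9.26 times (NGP) the RPKM of Slc25a40, and counting intervals of these multiples, 10.8 to 12.97 and 8.52 to 10.1, did not overlap. With the same reads on the lengths of the principal transcripts these multiples were 6.43 (HGP) and 5.03 (NGP). The iron importer gene Slc25a28 (mitoferrin of non-erythroid cells) had 6.58 (HGP) and 6.77 (NGP) RPKM, a ratio of 0.972 (0.893 to 1.06). Slc25a37, the mitoferrin best known from red cell precursors, had 0.623 (HGP) and 0.651 (NGP) RPKM.

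None of the remaining carriers above the filter had an interval below 1, and several members had too few reads for a ratio. Slc25a14 and Slc25a27, relatives of the uncoupling proteins, had 2.92 and 2.60 RPKM in the HGP library and 2.999 and 2.54 RPKM in the NGP library. Slc25a30 of that group stood at 0.630 (HGP) and 0.550 (NGP) RPKM. Slc25a46, an unusual member that sits in the outer membrane and takes part in the shape of mitochondria, had 17.1 (HGP) and 16.1 (NGP) RPKM, a ratio of 1.06 (1.01 to 1.11). Its exons overlap B930094E09Rik on the opposite strand. Slc25a35, given no substrate here, had the highest log2 ratio of the 27 at 0.13, with 1.24 (HGP) and 1.08 (NGP) RPKM and an interval of the ratio from 0.927 to 1.41 that holds 1. Its exons overlap Rangrf. Among members with no substrate given, Slc25a47 had 0.858 (HGP) and 0.759 (NGP) RPKM and Slc25a53 had 0.597 (HGP) and 0.586 (NGP) RPKM. Slc25a45 had 4 (HGP) and 10 (NGP) reads, Slc25a34 had 4 (HGP) and 2 (NGP), and Slc25a54 had 2 (HGP) and 0 (NGP). Slc25a48 had no reads in either library, and the pseudogene Slc25a5-ps had 0 (HGP) and 5 (NGP).

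**Figure D4:**
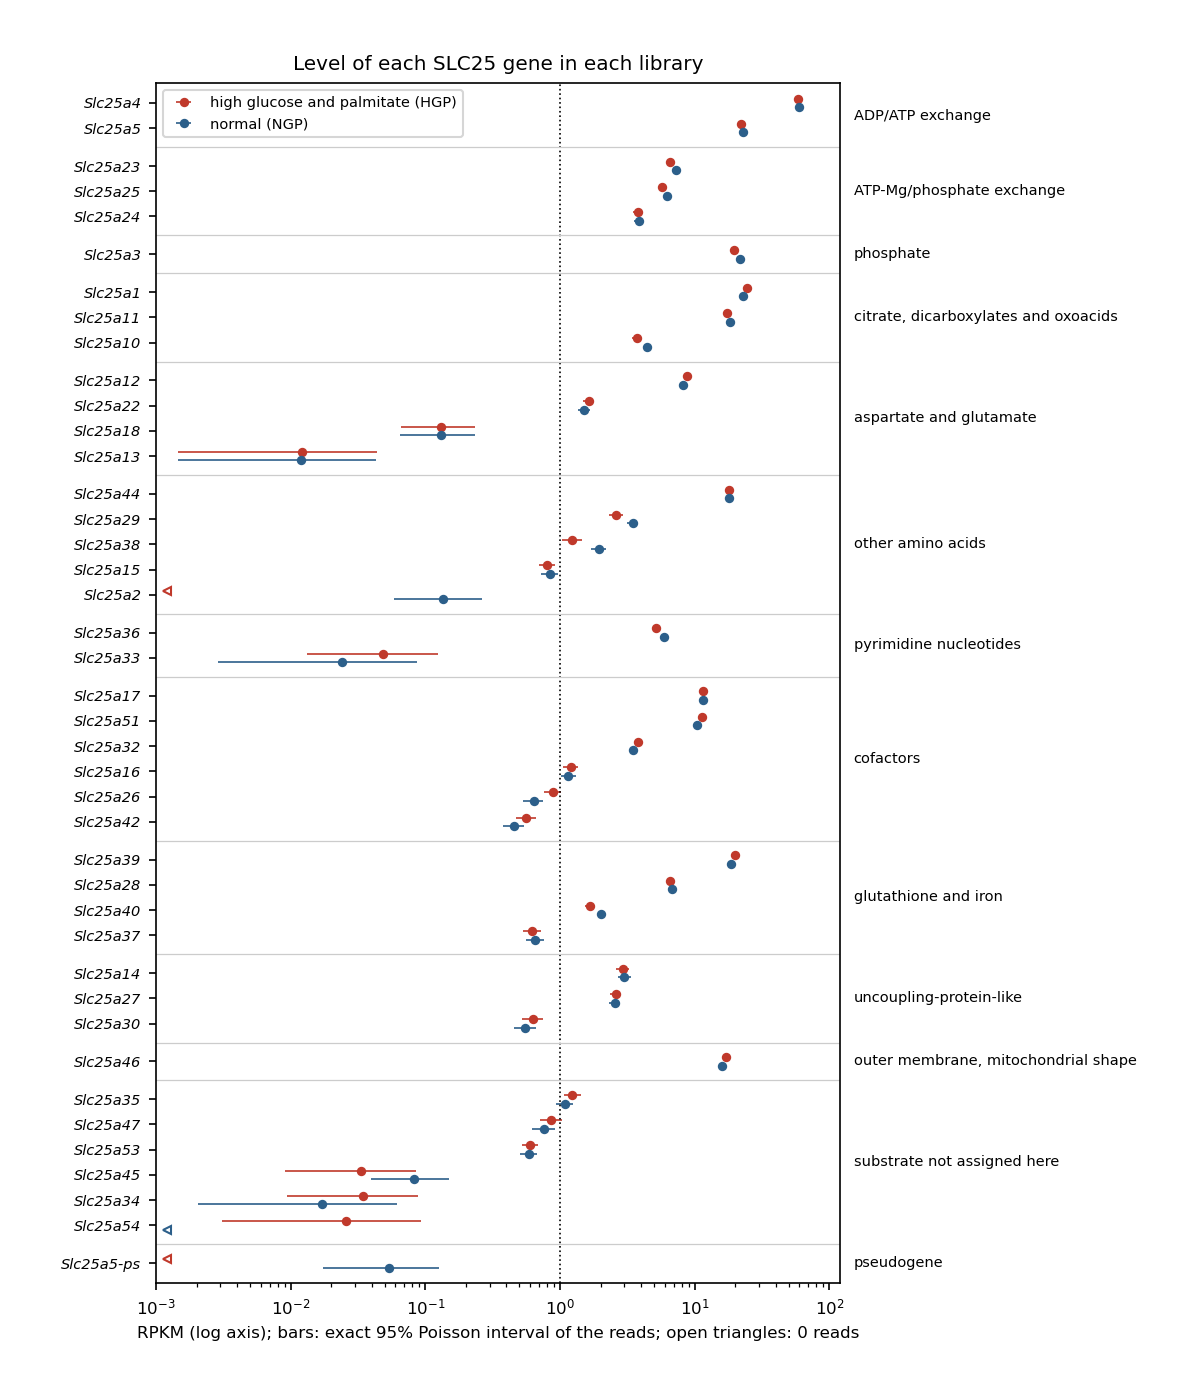
RPKM (log axis) of 41 members with reads in either library, by substrate, with HGP in red above NGP in blue and exact 95% Poisson intervals of the reads. The dotted line is the filter of 1 RPKM, and within most substrate groups the members differ far more from each other than the libraries do.

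Counting error alone was exceeded by more carriers than the fold rule named. The interval lay above 1 for 5 of the 27 (18.5%), Slc25a51, Slc25a1, Slc25a39, Slc25a46 and Slc25a12, against 22.0% of all features. It lay below 1 for 8 of the 27 (29.6%), against 22.3% of all features. These 8 were Slc25a38, Slc25a29, Slc25a40, Slc25a10, Slc25a36, Slc25a3, Slc25a23 and Slc25a25. On halved reads 1 carrier stayed above and 6 below, or 3.70% and 22.2%, with 15.1% and 15.6% of all features. All carriers above 1 on whole reads had ratios of at most 1.09.

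Some members lie close to each other in the genome. Slc25a29 and Slc25a47 run away from each other on chromosome 12 with 162 bases between them, and their ratios were 0.756 and 1.13 (0.856 to 1.496). This gap is shorter than the 250 bases taken before the start of Slc25a29, so its printed promoter may reach into Slc25a47. Slc25a41 and Slc25a23 are 2056 bases apart on chromosome 17, on the same strand, and Slc25a41 had no reads while Slc25a23 had 1515 (HGP) and 1689 (NGP). On chromosome 3 Slc25a54 and Slc25a24 are 6461 bases apart, with 1 listed gene between them. Slc25a54 had 2 (HGP) and 0 (NGP) reads and Slc25a24 had 566 (HGP) and 583 (NGP). Slc25a41 and Slc25a54 were thus at or near 0 beside a carrier above the filter.

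Genes that work with the carriers were described by lists. Family members under other names went both ways. Ucp2, an uncoupling protein gene of beta cells, had 2.32 (HGP) and 1.52 (NGP) RPKM, a ratio of 1.53 (1.36 to 1.73), and its exons overlap another gene. Mtch1 and Mtch2, outer membrane relatives that insert proteins, had ratios of 0.900 (0.868 to 0.934) and 0.853 (0.799 to 0.910). The left-out carnitine carrier gene Slc25a20 had 3.07 (HGP) and 2.06 (NGP) RPKM, so that it and Ucp2 lay past 1.2-fold higher where none of the 27 carriers did. Both genes of the mitochondrial pyruvate carrier, which is unrelated to SLC25, were past 1.2-fold lower. Mpc1 stood at 2.99 (HGP) and 3.73 (NGP) RPKM and Mpc2 at 1.06 (HGP) and 1.48 (NGP) RPKM. Exons of Mpc1 overlap another listed feature.

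The machinery that imports carrier proteins into the inner membrane stood near the carriers themselves, with a median log2 ratio of -0.03 over 13 genes, 6 above 0 and 7 below. Timm10, a small chaperone of the intermembrane space that guides carriers, was higher at 9.88 (HGP) and 6.50 (NGP) RPKM, a ratio of 1.52 (1.28 to 1.7996). Its partner Timm9 stood at 1.81 (HGP) and 2.21 (NGP) RPKM, a ratio of 0.816 (0.705 to 0.945), which did not reach 1.2-fold with 0.5 RPKM added. Timm8b, another small chaperone, was past 1.2-fold lower at 20.4 (HGP) and 24.97 (NGP) RPKM, and Timm22, the pore of the insertion complex, had a ratio of 1.16 (1.03 to 1.31). Exons of Timm9 and Timm8b overlap other listed features. Outer membrane pores, the VDAC genes, had a median of -0.03 over 3 genes.

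Some enzymes that share substrates with the carriers were past 1.2-fold, while others were not. The 4 enzymes of the malate-aspartate shuttle, Got1, Got2, Mdh1 and Mdh2, all lay below 0, but between -0.10 and -0.0043 on the log2 scale. In the glycerophosphate shuttle, Gpd2, the mitochondrial enzyme, had 9.91 (HGP) and 13.4 (NGP) RPKM, a ratio of 0.741 (0.706 to 0.778). The cytosolic Gpd1 had 13.5 (HGP) and 10.9 (NGP) RPKM, a ratio of 1.24 (1.15 to 1.33), and exons of both genes overlap another listed feature. Of 8 measured enzymes of citrate and pyruvate cycling, Pcx and Idh2 were past 1.2-fold lower and Idh1 past it higher. Pcx, pyruvate carboxylase, stood at 5.71 (HGP) and 8.78 (NGP) RPKM. Idh2, the mitochondrial NADP-dependent isocitrate dehydrogenase, had 64.7 (HGP) and 94.6 (NGP) RPKM, a ratio of 0.684 (0.664 to 0.705). Its cytosolic counterpart Idh1 had 29.4 (HGP) and 24.2 (NGP) RPKM, a ratio of 1.21 (1.16 to 1.28). Of the calcium uniporter complex, 5 of 6 genes lay below 0 with a median of -0.15 and none past 1.2-fold. Regulators of mitochondrial biogenesis had a median of -0.06 over 7 genes, and Esrra alone was past 1.2-fold, with 2.48 (HGP) and 1.88 (NGP) RPKM. Exons of Esrra overlap another listed feature. Of 13 mitochondrially encoded mRNAs 9 were measured, and all 9 lay below 0, with a median of -0.17, while the carriers' median was -0.03. The rest were under the filter with log2 ratios above 0. These were mt-Co2 at 4 (HGP) and 0 (NGP) reads and mt-Co3 at 39 (HGP) and 29 (NGP) reads. With them were mt-Atp6 at 7 (HGP) and 1 (NGP) reads and mt-Atp8 at 3 (HGP) and 2 (NGP) reads. Why their reads were so few was not tested. Past 1.2-fold lower were mt-Nd3 at 128 (HGP) and 159.9 (NGP) RPKM and mt-Nd2 at 1555 (HGP) and 1875 (NGP) RPKM, both subunits of complex I. The exon of mt-Nd2 overlaps another listed feature. All 4 measured of 9 RNAs listed as nuclear long noncoding lay above 0 with a median of 0.38. Some RNAs of this kind, such as Malat1, are read for RNA quality. Rn7sk at 38 (HGP) and 12 (NGP) reads and Snhg1 at 15.1 (HGP) and 10.8 (NGP) RPKM were past 1.2-fold higher. So was Neat1 at 18.0 (HGP) and 14.6 (NGP) RPKM. Malat1, the most abundant of the list, stood at 318 (HGP) and 306 (NGP) RPKM, a log2 ratio of 0.06. The list's median was 0.06 over all 9 with no filter, and 1.24 from Rn7sk alone without features that overlap others. The part of these transcripts in the carriers' values was likewise not tested.

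**Figure D5:**
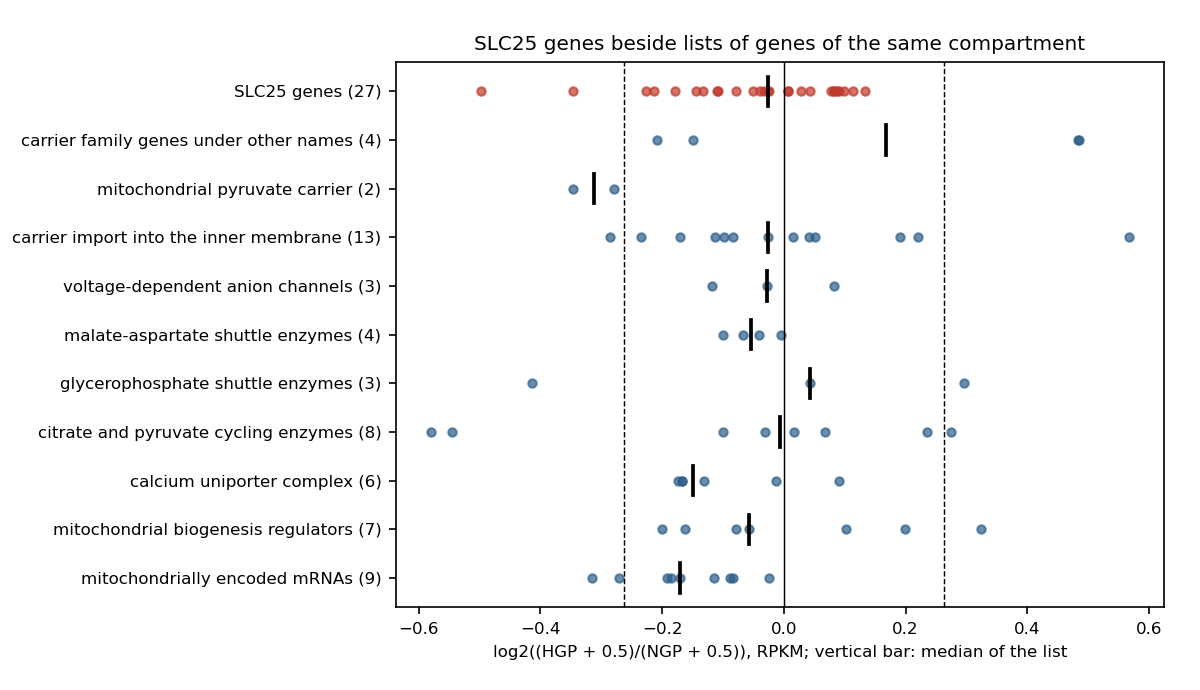
Log2 ratios (HGP over NGP, 0.5 RPKM added) of the measured genes of each list, with the number of genes in brackets and a bar at the list's median. Dashed lines mark 1.2-fold, and the 27 carriers in the top row lie between -0.50 and 0.13.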

How the data were processed

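The values are RPKM as the authors deposited them, per the file headers in 1 column a library. Feature length, strand and exon positions stand beside them. The submitters' processing notes name build GRCm39, Trimmomatic 0.36 and edgeR 3.12.1. No source used here gives the aligner, the counter, the annotation or the strand setting. Per the labels, the mRNA kit was stranded. RPKM times length times a library factor gave whole reads for 100% of values within 0.01 read.

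Analysis used Python 3.11.15, scipy 1.17.1 and BLAST 2.17.0. Log2 ratios are of RPKM plus 0.5, HGP over NGP, for features of mean RPKM 1 or more. With 1 library per group no test was possible and no p-value is given. Intervals of ratios come from the Clopper-Pearson interval of the HGP share of reads at the 95% level. They cover counting error only, since reads are not independent molecules. Members above the filter are named, except 1 that is not reported here by name, and list genes past 1.2-fold by size, up to 4 a list. Timm9, Timm22, Iapp, Malat1, the mitochondrially encoded mRNAs under the filter and the markers at low reads fall outside this rule. They were chosen after their values were seen. Members and lists were chosen with earlier results of these data known. Alternatives were other pseudocounts, filters, scalings and interval settings, and leaving out features with exon overlaps. Steps were tested on simulated reads drawn independently. That leaves out mates counted together, so it does not check the intervals for these data.

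Transcripts that match a carrier are GENCODE M21 transcripts aligned at 95% identity or more over at least 200 bases. They include pseudogenes, genes that overlap a carrier on the opposite strand and a gene that shares a stretch with a carrier.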

Additional observations from a re-analysis of the deposited data

How the results depend on the processing

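The carriers at least 1.2-fold lower were the same with pseudocounts of 0.1, 0.5 and 1, under either scaling and without features with exon overlaps. Each of these settings gave 2 lower and 0 higher. On plain RPKM, with no pseudocount, Slc25a40 at a ratio of 0.829 was also past 1.2-fold lower. With a mean RPKM of at least 5 none was lower, since Slc25a38 and Slc25a29 lie under that level. The median of carriers of other amino acids was then 0.0065 from Slc25a44 alone. With no filter 1 was higher, Slc25a26, and 3 were lower. A pseudocount of 0.1 put 1 carrier past 1.5-fold lower. The count of intervals above 1, which was 5, became 2 under median-of-ratios scaling, 2 with 99% intervals, 3 without overlapping features and 1 on halved reads. The count below 1, which was 8, became 4 with a mean RPKM of at least 5 and 4 without overlapping features. The median log2 ratio of the carriers stayed between -0.04 and 0.0002. Median-of-ratios scaling shifted all log2 ratios by -0.01 and leaving out the 10 most abundant genes by 0.0064. Leaving out Slc25a29 and Slc25a38, chosen after seeing the data, gave a median of -0.02. All 170 recomputed log2 ratios of single carriers moved by no more than the distance from the ratio to the edge of its counting interval, taken as the mean of both sides. For the filters and for leaving out overlaps this was fixed in advance, since these settings choose carriers and leave each log2 ratio unchanged. Only the pseudocounts and scalings could move a single ratio. Depth limits the carriers of few reads, where 9 of 44 members had at most 20 reads over both libraries. No paired analysis was possible because each group is 1 library.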

Other observations

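Transcripts that match a carrier over a stretch differed in their reads. The processed pseudogenes Gm5560 and Gm5529, which match the Slc25a5 transcript at 98.3% and 96.8% identity, had 6 and 0 reads in the HGP library and 14 and 8 in the NGP library, beside 1597 (HGP) and 1671 (NGP) reads for Slc25a5. With them added, the ratio of Slc25a5 was 0.956. Gm5066, which matches Slc25a40 at 96.3% identity, had no reads in either library. Adding Gm13217 to Slc25a36 left its ratio at 0.873. Other matches held more reads beside the carrier. Adpgk, through a retained-intron transcript that matches Slc25a12 over 247 bases, had 1049 (HGP) and 1075 (NGP) reads, and with them the ratio of Slc25a12 was 1.04. Naif1, whose exons overlap those of Slc25a25, had 614 (HGP) and 700 (NGP) reads, and the ratio with them was 0.913. With the reads of Gm11788 added, the ratio of Slc25a10 was 0.799, and with those of B930094E09Rik that of Slc25a46 was 1.05. Each such sum takes all reads of the other gene, so it mixes that gene's own level with any shared reads.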
